A study of Macaca mulatta with 24 samples.

Results

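The genes described here code for the receptors with which a platelet holds on to an injured vessel wall and to other platelets. They were taken as every non-control probe whose gene name in the scanner output was GP1BA, GP1BB, GP9, GP6, ITGA2B, ITGB3, CD9, CLEC1B or TREML1. Of these 9 genes, 7 had a probe, with 11 probes among the 43603 probes of the array, and 10 of the 11 were tested among 27112 probes in all. No probe carried the names GP1BB or GP6, and these genes were not analysed here.

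Whole blood of adult rhesus macaques of both sexes was drawn before and 3, 5 and 7 days after a total body dose of 4 Gy. Blood went into PAXgene tubes, globin transcripts were depleted, and RNA was labelled with Cy3 and hybridised to one-colour rhesus arrays. Of the 24 arrays, 7 were of blood before irradiation (0 Gy), and 4, 6 and 7 of blood from days 3, 5 and 7 in turn. The replicate numbers 1 to 7 were taken as animals, 4 labelled male and 3 female, and the controls are earlier samples of the same animals, with no array of an unirradiated animal on the later days. The labels call the radiation X-rays and the study's methods describe a cobalt source, and the difference was not resolved here. Whole blood RNA comes from all blood cells together, so fewer cells of a type and less RNA per cell cannot be told apart. Signals are relative to the other RNA on the same array and are not amounts per volume of blood. For a rise, more platelet RNA and a loss of RNA from other cells therefore cannot be told apart either.

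Platelets are fragments of megakaryocytes and have no nucleus, so their RNA is inherited from the parent cell and decays after release into blood. At a wound, glycoprotein Ib with its partner GP9 catches von Willebrand factor under flow, glycoprotein VI binds collagen, and the signals that follow switch the integrin made of ITGA2B and ITGB3 into the state that binds fibrinogen and links platelets into an aggregate. CLEC1B codes for CLEC-2, the receptor for podoplanin, TREML1 for a receptor stored in alpha granules and shown on the surface upon activation, and CD9 for a tetraspanin that is abundant in the platelet membrane and also made by other cells.

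Probe sequences are shown for GP1BA, for both chains of the fibrinogen receptor, whose probes cover known motifs, and for a pair of probes whose gene name is in doubt. All are 60 bases long, from the scanner output, with positions on the rheMac2 build of the rhesus genome. The GP1BA probe, at chr16:4734245-4734304 on the plus strand, detects the chain that binds von Willebrand factor.
GP1BA: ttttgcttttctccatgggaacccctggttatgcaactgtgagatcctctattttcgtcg
The ITGA2B and ITGB3 probes cover the codons of the short cytoplasmic tails, through which talin and kindlin act on the integrin. Capitals mark the codons of the conserved motif next to the membrane in the alpha chain, and those of the NPxY motif bound by talin in the beta chain. The ITGA2B probe lay at chr16:54468529-54470543 on the minus strand and the ITGB3 probe at chr16:57383513-57385662 on the plus strand. These spans of 2015 and 2150 bases are longer than the probes, as for a probe placed across an intron.
ITGA2B: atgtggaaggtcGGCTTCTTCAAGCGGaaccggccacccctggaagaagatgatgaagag
ITGB3: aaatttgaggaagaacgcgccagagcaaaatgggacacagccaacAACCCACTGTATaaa
The other probes lay at chr11:85789295-85789354 (GP9, minus strand), chr11:10182712-10182771 (CLEC1B, minus strand) and chr4:40972806-40972865 (TREML1, minus strand), and those of CD9 at chr11:6349900-6349959 and chr11:6350001-6350060 on the plus strand. The GP9 probe carries a GP9 accession, but RefSeq's gene table, of another assembly, has GP9 on chromosome 2, so its position on chromosome 11 is in doubt.

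The other 3 of the 5 probes named CD9 do not belong to that gene by their accessions. RefSeq's gene table lists the accessions of 2 of them under MIC1 and MICB, MHC class I chain-related genes that code for stress ligands of the NKG2D receptor, and the third probe shares an accession with one of these 2. A pair of them, at chr4:31133543-31133602 and chr4:30922120-30922179 on the plus strand, overlap in sequence by 53 bases, of which 49 match. Capitals mark the 4 bases that differ.
first probe: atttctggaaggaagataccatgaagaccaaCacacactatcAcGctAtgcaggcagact
second probe: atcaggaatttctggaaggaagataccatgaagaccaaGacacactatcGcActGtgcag
CD9 is therefore described from its brightest probe, at chr11:6349900-6349959, and the MIC-related probes are kept apart from it.

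Values are log2 signals after each array was shifted to a common median, so that a difference of 1 is a doubling. A difference was called at an adjusted p under 0.005 (limma, two-sided, Benjamini-Hochberg over all probes tested). The brightest tested probe stands for a gene, and levels of different probes are not compared. A probe counts as detected on an array where the scanner software found it well above background. On each array 48.3 to 61.2% of spots were well above background, and no spot of a member was saturated. GP9, ITGA2B, CD9, CLEC1B and TREML1 were well above background on all 24 arrays. GP1BA and ITGB3 were so on none of the 7 pre-irradiation arrays, and passed the filter for testing only through later arrays.

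The arrays lay on 6 slides and were scanned in 2 sessions. All 4 day 3 arrays and all 6 day 5 arrays were scanned in the second session, together with only 1 of the 7 pre-irradiation arrays, that of animal 5. For day 3 and day 5 against pre-irradiation, scan session and day can therefore barely be told apart. Day 7 and pre-irradiation arrays of each animal shared a session and a slide, and days 3 and 5 shared a session.

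At day 3 the 5 receptor genes that were detected on all arrays were all called higher than before irradiation, where 5.44% of all probes tested were. GP1BA and ITGB3 were called too, but were tested only because of the later arrays on which they are high. In the 5 detected genes the change ran from 1.61 (CLEC1B) to 3.14 (ITGA2B) on the log2 scale, with a median of 1.73. For GP1BA and ITGB3 it has only a lower bound. The measured median of the 7 was 2.91, the value of ITGB3, and 1.73 with both genes at their bounds, against 0.02 for all probes. In each of the 4 animals with a day 3 array, every one of the 7 genes was above that animal's own pre-irradiation value, with a median over the 5 detected genes of 1.89 in animal 1, 1.55 in animal 2, 2.22 in animal 4 and 1.90 in animal 7.

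**Figure D1:**
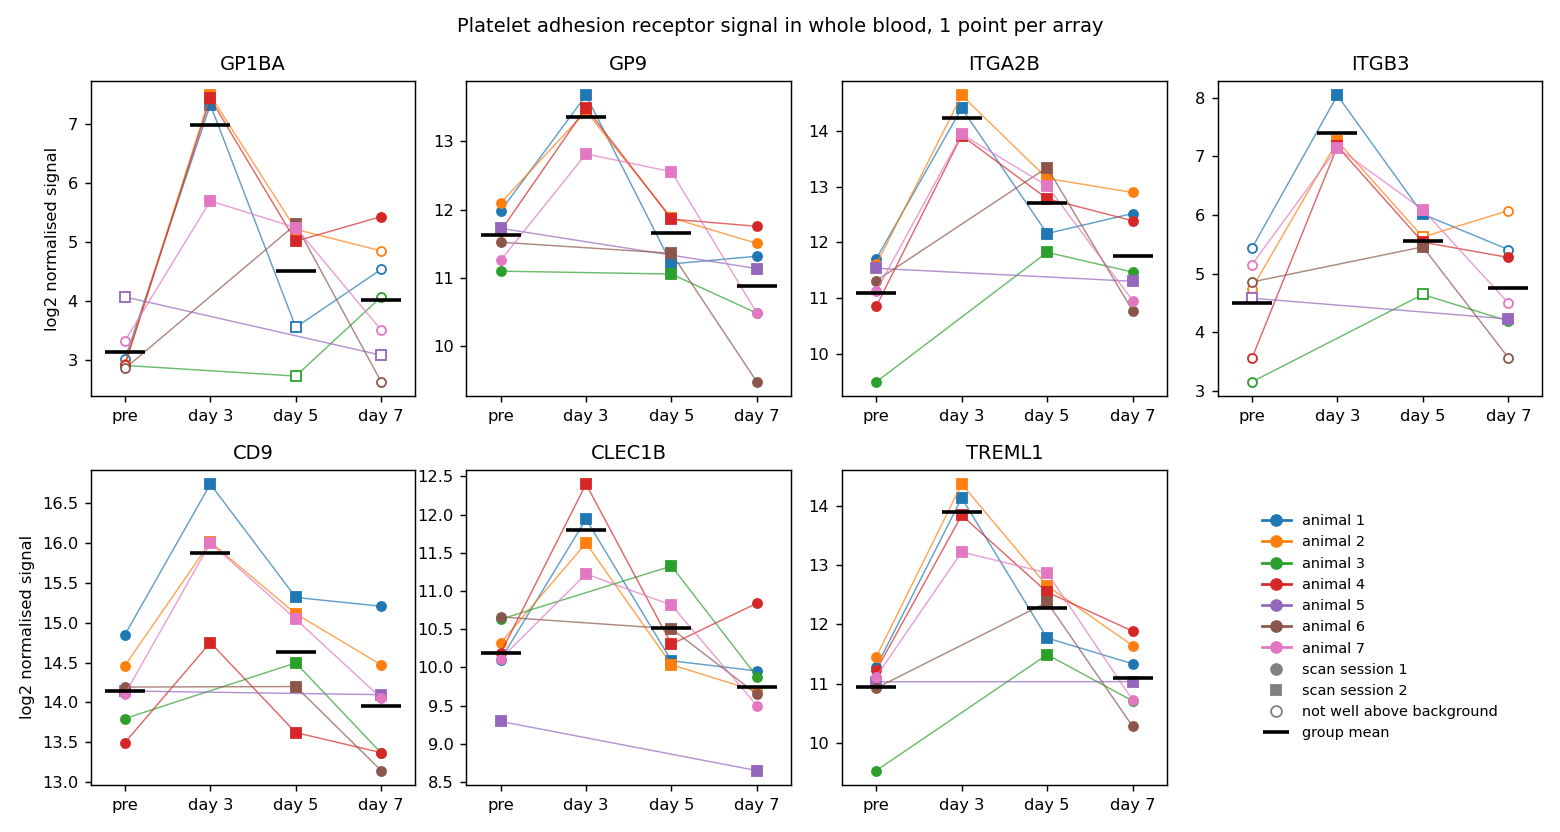
Log2 normalised signal of the 7 measured genes (y axis) on each of the 24 arrays by time of sampling (x axis), 1 line per animal, with circles and squares for the scan sessions, hollow symbols for spots not well above background and black bars for group means. All 4 day 3 arrays lie above all 7 pre-irradiation arrays in every gene except CD9, and at day 7 the groups overlap in all 7.

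GP1BA carries the binding site for von Willebrand factor. Its log2 signal before irradiation was 2.86 at the lowest, 2.93 at the median and 4.08 at the highest, with no array well above background, while at day 3 it was 7.33, 7.49, 7.43 and 5.70 in animals 1, 2, 4 and 7. The groups did not overlap, and animal 7 stood below the other 3 animals. The measured difference was 3.83 ± 0.35 (SE, adjusted p = 3.9e-05). Since the pre-irradiation signal is only a bound, GP1BA was at least 3.25-fold higher at day 3, with the lowest signal among detected probes of each array as the floor.

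GP9 is the small subunit that the glycoprotein Ib complex needs to reach the surface. Its signal ran from 11.10 over a median of 11.69 to 12.10 before irradiation and was 13.68, 13.44, 13.50 and 12.82 at day 3. All 4 day 3 arrays were above all pre-irradiation arrays. The change was 1.73 ± 0.23 (SE, adjusted p = 0.000383), or 3.33-fold. GP5, the remaining subunit of this complex and no member of the set, changed by 2.73 ± 0.57 at day 3 (SE, adjusted p = 0.00394).

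ITGA2B is the alpha chain that restricts the fibrinogen receptor to the platelet lineage. Its signal was 9.49 at the lowest, 11.31 at the median and 11.71 at the highest before irradiation, against 14.41, 14.65, 13.92 and 13.95 at day 3. The groups lay 2.22 apart at their nearest, the widest gap among the 5 detected genes. The change was 3.14 ± 0.38 (SE, adjusted p = 0.000214), or 8.82-fold.

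ITGB3, the beta chain, pairs also with other alpha chains in other cells. It was not well above background before irradiation, with signals from 3.16 over 4.75 to 5.44, and reached 8.04, 7.26, 7.17 and 7.15 at day 3. Again the groups did not overlap. The measured difference was 2.91 ± 0.41 (SE, adjusted p = 0.00052), and ITGB3 was at least 4.29-fold higher by the same bound.

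TREML1, the granule receptor, had the next widest gap. Its signal ran from 9.53 over a median of 11.12 to 11.45 before irradiation and was 14.13, 14.37, 13.84 and 13.22 at day 3. The nearest arrays of both groups were 1.77 apart. The change was 2.95 ± 0.35 (SE, adjusted p = 0.000188), or 7.73-fold.

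CLEC1B, the podoplanin receptor, had signals from 9.29 over 10.18 to 10.66 before irradiation and of 11.94, 11.63, 12.40 and 11.22 at day 3. The groups did not overlap, and the order of the animals at day 3 differed from that in GP1BA, with animal 4 the highest. The change was 1.61 ± 0.28 (SE, adjusted p = 0.00153), or 3.06-fold. With the animal as a block the change was 1.62 and no longer called (adjusted p = 0.00784).

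CD9 signals ran from 13.49 over 14.14 to 14.85 before irradiation and were 16.74, 16.02, 14.75 and 16.00 at day 3. Animal 4 at day 3 lay 0.10 below the highest pre-irradiation array, so here the groups overlapped, although animal 4 itself was 1.26 above its own earlier value. The change was 1.73 ± 0.34 (SE, adjusted p = 0.00301), or 3.32-fold. The second CD9 probe, just downstream, changed by 1.42 ± 0.34 and was not called (adjusted p = 0.00732).

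In total, 4 of the 5 detected genes had every day 3 array above every pre-irradiation array. So did GP1BA and ITGB3, which were tested only because of the later arrays. Such a separation held for 8.61% of the 26571 tested probes with a value on every array. These probes are the base of all shares of groups that do not overlap. Leaving out each animal in turn, GP9, ITGA2B and TREML1 were called in all 7 omissions. CLEC1B was lost without animal 1, 2 or 4, and CD9 in every omission but that of animal 4. GP1BA and ITGB3 were also called in all 7 omissions. They passed the filter only through arrays after irradiation, so their calls are not read as support. With these 2 included, 5 to 6 of the 7 genes were called, in fits that called 308 to 1455 probes higher. Against the one pre-irradiation array of the same scan session, that of animal 5, the 5 detected genes were 1.63 (GP9) to 2.86 (TREML1) higher at day 3, in a fit with a single array in 1 arm that called 0 of 27043 probes by limma (4668 at an unadjusted p under 0.05). When scan session was blocked in a model of all 24 arrays, 5 of the 7 were called, with 232 of 27106 probes called higher. When slide was blocked 1 of the 7 was called, CLEC1B, with 90 probes called higher. The median change of the 5 detected genes was 2.60 with session as a block and 2.57 with slide as a block, against 1.73 without a block.

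At day 5 ITGA2B and TREML1 were still called higher than before irradiation, 2 of 7 genes where 7.16% of all probes were. The other 5 did not pass the test. All 6 arrays of ITGA2B and of TREML1 were above all 7 pre-irradiation arrays, which held for none of the other 5 genes and for 5.67% of all probes. The median change of the 5 detected genes was 0.48 against 0.02 for all probes. Over all 7 it was 1.06, the value of ITGB3, which was not detected before irradiation.

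ITGA2B signals at day 5 ran from 11.82 over a median of 12.90 to 13.35. The change was 1.63 ± 0.36 (SE, adjusted p = 0.00316), or 3.08-fold. In the omissions of 1 animal the change was 1.54 to 1.84. The call was lost without animal 2, 4, 6 or 7 (adjusted p up to 0.0147). Those fits called 1014, 1280, 1583 and 1101 probes higher in all, against 1940 with all animals.

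TREML1 ran from 11.49 over 12.46 to 12.87, which was 1.34 ± 0.31 above pre-irradiation (SE, adjusted p = 0.00438). Its lowest day 5 array, that of animal 3, lay 0.04 above the highest pre-irradiation array, but 1.96 above that animal's own earlier value. TREML1 remained called only in the omission of animal 3 (adjusted p up to 0.0179 in the others).

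GP1BA was detected at day 5 in animals 4, 6 and 7, at signals of 5.02, 5.30 and 5.25. In animals 1, 2 and 3 it was 3.56, 5.22 and 2.74, not well above background, as on all pre-irradiation arrays. The measured day 5 mean lay below the floor set by the pre-irradiation arrays, so no fold is given, and GP1BA was not called (adjusted p = 0.0189), but was in the fit without animal 3 (adjusted p = 0.00332).

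ITGB3 ran from 4.65 over 5.58 to 6.09 and was well above background on 4 of the 6 day 5 arrays. It was at least 1.20-fold higher than before irradiation by the bound and not called (adjusted p = 0.0349). CD9 differed by 0.48 ± 0.29, CLEC1B by 0.33 ± 0.25 and GP9 by 0.03 ± 0.25. CD9 was above the animal's own start in 6 of 6 animals and GP9 in 2 of 6. Whether changes differ between the genes was not tested.

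With scan session as a block neither day 5 call was made (ITGA2B 1.63, adjusted p = 0.0629, TREML1 1.32, adjusted p = 0.0683). Against the pre-irradiation array of animal 5 alone, ITGA2B was 1.18 and TREML1 1.25 higher.

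At day 7 none of the 7 genes was called against pre-irradiation by limma, where 3.6% of all probes were called higher and 7.29% lower. At an unadjusted p under 0.05 were 2 of the 7, GP1BA and GP9, where 39.5% of all probes were. GP1BA was well above background on 0 pre-irradiation arrays and on 1 day 7 array. The median change was -0.19 over the 5 detected genes and 0.15 over all 7, against 0.02 for all probes. This comparison is balanced over slides and sessions.

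**Figure D2:**
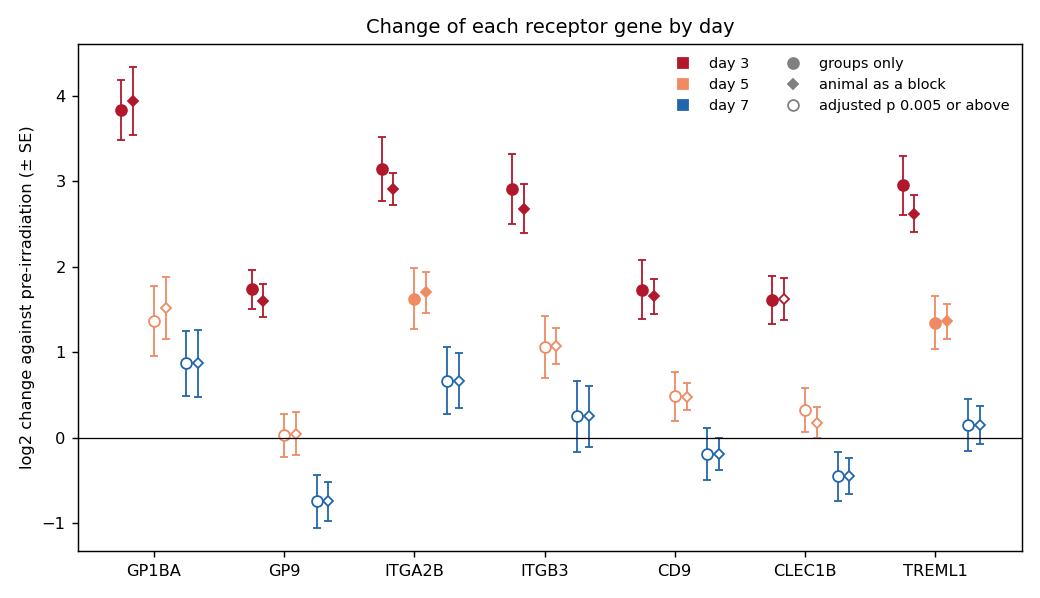
Log2 change against pre-irradiation (y axis, bars are SE) of each gene at days 3, 5 and 7, by the fit without (circles) and with the animal as a block (diamonds), filled where the adjusted p was under 0.005. All 7 genes peak at day 3, ITGA2B and TREML1 stay filled at day 5, and at day 7 the changes lie between -0.74 and 0.87. The values of GP1BA and ITGB3 are measured against pre-irradiation arrays none of which was well above background.

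The standard deviation between animals at day 7 was 0.79 in GP9, 0.73 in CD9 and 0.65 in CLEC1B, against 0.36, 0.44 and 0.46 before irradiation. It was 0.84 in ITGA2B and 0.57 in TREML1, against 0.76 and 0.64. GP9 ran from 9.48 over a median of 11.14 to 11.76, a difference of -0.74 ± 0.31 (SE, adjusted p = 0.085), with 6 of 7 animals below their own start. GP1BA ran from 2.64 over 4.08 to 5.43 (adjusted p = 0.103), with 1 of these 7 signals well above background, and ITGB3 was so on 2 of 7 arrays (adjusted p = 0.689). No fold is given for either.

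ITGA2B differed by 0.67 ± 0.39, TREML1 by 0.15 ± 0.31, CD9 by -0.19 ± 0.30 and CLEC1B by -0.45 ± 0.29 at day 7. Between animals the median change over the 5 detected genes reached from -1.01 in animal 6 to 0.66 in animal 4. Animals 1 to 4, labelled male, had medians of 0.06, 0.01, -0.43 and 0.66, and animals 5 to 7, labelled female, of -0.23, -1.01 and -0.39. With GP1BA and ITGB3 included animal 3 had a median of 1.04. The interaction of sex and day was called for 0 of 27108 probes by limma. ITGA2B had the smallest p of the 5 genes in it, with a female minus male change of -1.72 ± 0.67 (SE, unadjusted p = 0.0226, adjusted p = 0.513).

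Directly compared, day 7 was lower than day 3 in all 7 genes, and the 5 detected genes differed by -1.92 (CD9) to -2.80 (TREML1) on the log2 scale. GP1BA was detected on 1 and ITGB3 on 2 of the 7 day 7 arrays, so the size of their fall is uncertain. Both passed the filter for testing only through arrays after irradiation, so their tests are not read as support. TREML1 fell by 2.80 ± 0.33 (SE, adjusted p = 0.00126), GP9 fell by 2.48 ± 0.39 (adjusted p = 0.00405), ITGB3 fell by 2.65 ± 0.43 (adjusted p = 0.00433) and ITGA2B fell by 2.47 ± 0.41 (adjusted p = 0.00466). These were 3 of the 5 detected genes, and ITGB3, where 0.948% of all probes were called lower. CLEC1B (adjusted p = 0.00549), GP1BA (adjusted p = 0.0062) and CD9 (adjusted p = 0.0146) did not pass. In 4 of the 5 detected genes, and in GP1BA and ITGB3, every day 7 array was below every day 3 array, as in 5.92% of probes, and CD9 was so in 6 of 7 arrays. In each of the 4 animals sampled on both days all 7 genes were lower at day 7.

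When the animal entered as a block, none of the 7 was called (adjusted p = 0.0064 in TREML1 to 0.0113 in ITGB3), nor was any of the probes tested. With the block the changes were -1.60 (CD9) to -2.49 (TREML1) in the 5 detected genes, with a median of -2.04 against -2.47 without it. Without the block 5 of these 5 were lower at an unadjusted p under 0.05, where 16.2% of all probes were. In the fit of all 24 arrays, which shares its estimate of the spread over groups, all 7 were called, with 1227 of 27106 probes called lower. Omitting 1 animal left 0 to 2 genes called. There were 0 without animal 1, 4 or 7, where 0, 3 and 23 probes in all were called lower. There was 1 without animal 3 or 5 (92 and 145 probes in all). There were 2 without animal 2 or 6 (216 and 113 probes in all), against 257 probes with all animals. Of the day 7 arrays 1 shared the scan session of day 3, and with session as a block 1 gene, CLEC1B, was called, with 20 probes called lower in all.

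Days 3 and 5 were scanned together. All 7 genes were lower at day 5, the 5 detected at differences of -1.25 (CD9) to -1.71 (GP9), with none called by limma (adjusted p = 0.0449 to 0.326). At an unadjusted p under 0.05, 5 of the 5 were lower, where 6.11% of all probes were. In the whole series 5 probes, or 0.0184%, were called lower in this comparison. In 3 of the 5 detected genes, GP9, ITGA2B and TREML1, and in GP1BA and ITGB3, all 6 day 5 arrays were below all 4 day 3 arrays, as in 2.1% of probes. The 4 animals sampled on both days were lower in all 7 genes. The medians over the 5 detected genes were -2.25 in animal 1, -1.56 in animal 2, -1.30 in animal 4 and -0.41 in animal 7. From day 5 to day 7 none was called by limma (TREML1 -1.19, adjusted p = 0.0461), where 0.00369% of all probes were called lower. At an unadjusted p under 0.05, 4 of the 5 detected genes were lower, where 11.5% of all probes were.

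The CD9-named probes split into the 2 on chromosome 11 and the 3 with MIC accessions. Both CD9 probes peaked at day 3 with signals of 13.58 to 16.74. The MIC probe without a position had signals of 4.88 to 7.33 over all arrays, with group means of 5.84, 6.32, 6.58 and 6.19 in order of time, and was not called on any day (adjusted p = 0.0635 to 0.404).

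The first probe printed in the pair above was well above background on no array before irradiation, and on 1 of 4, 5 of 6 and 4 of 7 at days 3, 5 and 7. It was thus tested only because of the later arrays. At day 7 its signals of 4.86 to 5.77 were all above the 3.51 to 4.84 before irradiation, as in 2.58% of probes. It passed the test there (adjusted p = 0.00406) and was at least 1.07-fold higher against the floor, while at day 5 it did not pass (adjusted p = 0.00581). The second probe of the pair was well above background on 1 array in all and was not tested. If all probes of that gene name counted, CD9 would be called at day 7 through a probe that is not of CD9 by its accession.

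**Figure D3:**
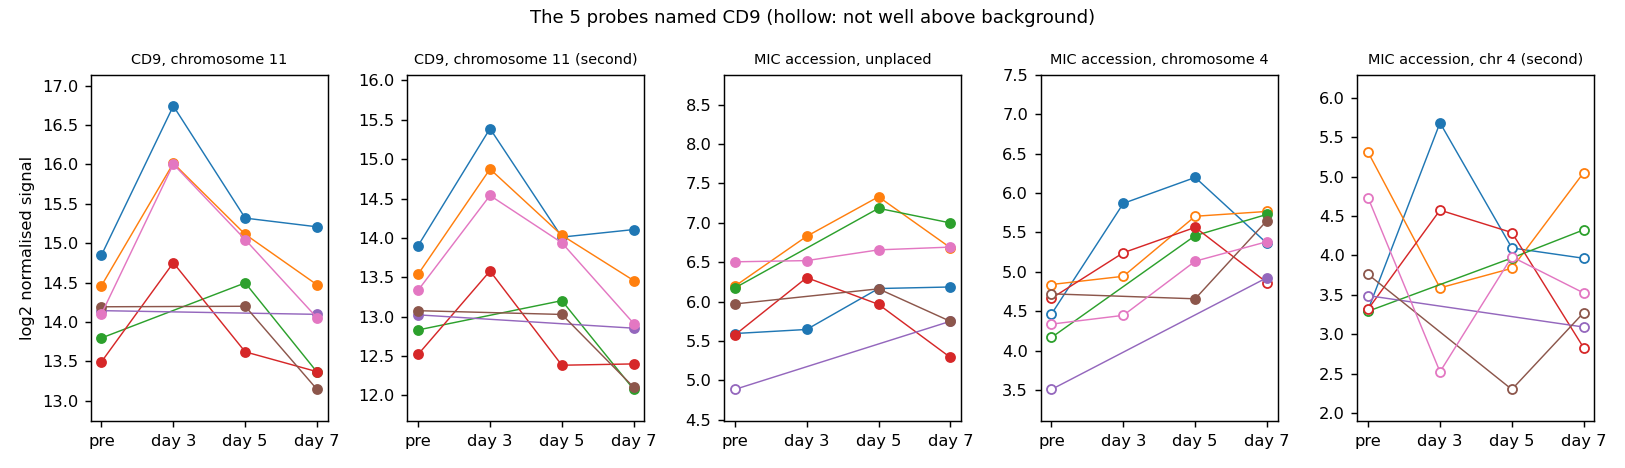
Log2 normalised signal (y axis, each panel spanning the same range of log2 units) of the 5 probes named CD9 by time of sampling (x axis), 1 line per animal, hollow where not well above background. The 2 chromosome 11 probes peak at day 3 and the 3 probes with MIC accessions stay at 7.33 or lower.

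Across all 24 arrays Pearson's r between pairs of genes ran from 0.507 to 0.957 with a median of 0.766 over 21 pairs. Within groups, after each group's mean was taken off, it ran from -0.240 to 0.880 with a median of 0.531. The 6 pairs with CLEC1B lay at -0.240 to 0.160 within groups, and the other 15 at 0.025 (GP1BA and CD9) to 0.880 with a median of 0.701. The arrays share animals, slides and RNA make-up, so these values are descriptions, and those of GP1BA and ITGB3 include arrays on which they were not detected.

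Among 11609 other named genes, those most like the mean profile of the 7 over 24 arrays were PLXNB3 (r = 0.969), a semaphorin receptor, ITGB5 (r = 0.960), an integrin beta chain, ECM1 (r = 0.945), an extracellular matrix protein, PDE5A (r = 0.935), the phosphodiesterase that breaks down cyclic GMP, and GAS2L1 (r = 0.935), which links actin to microtubules. At day 3 their changes were 3.07, 2.52, 2.40, 2.31 and 2.34. GP5 ranked 82 (r = 0.827). FCER1G, the signalling chain of glycoprotein VI, which neutrophils and monocytes also make, ranked 1664 (r = 0.452), and changed by 1.67 ± 0.30 (SE, adjusted p = 0.00171) at day 3 and by 0.16 ± 0.37 at day 7.

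Other genes of platelet adhesion were read from 7 lists, each gene by its brightest tested probe. Some genes stand in more than 1 list. Receptor partners and other surface receptors had 10 of 20 tested genes called higher and 0 lower at day 3, where 8.05% of all probes were called lower. Of the 20, 1 was higher on each later day and 0 were lower, and the medians of the 3 days were 1.19, 0.61 and 0.17. The largest of them at day 3 were ESAM, a junction protein (2.90 ± 0.36, SE, adjusted p = 0.000277), GP5 and ITGA2, the alpha chain of the collagen integrin (2.72 ± 0.45, SE, adjusted p = 0.0012). Before irradiation GP5 was well above background on 4 and ITGA2 on 5 of 7 arrays.

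Receptors for soluble agonists had 4 of 9 called higher and 0 lower at day 3. They included the ATP channel P2RX1 (2.85 ± 0.44), the prostacyclin receptor PTGIR (2.48 ± 0.24), which inhibits platelets, and the ADP receptor P2RY12 (1.74 ± 0.31). PTGIR was still called at day 5 (1.41 ± 0.25, SE, adjusted p = 0.000742), when P2RX1 was at 0.37 ± 0.34. PTGIR was well above background on 5 of the 7 pre-irradiation arrays. Day 5 also had 1 of the 9 called lower, TBXA2R, the thromboxane receptor, named here after its values were seen (-1.35 ± 0.24, SE, adjusted p = 0.000823). TBXA2R was at -1.34 ± 0.30 at day 3, not called (adjusted p = 0.00549). At day 7 none of the 9 was called by limma, in either direction.

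Ligands of the receptors had 3 of 8 called higher and 1 lower at day 3, 2 higher and 2 lower at day 5, and 2 higher and 1 lower at day 7, with medians of 1.31, 1.06 and 0.79. SELP, a granule protein that binds leukocytes, rose by 3.16 ± 0.49, and VWF, the ligand of glycoprotein Ib, rose by 3.04 ± 0.40. FGB, the fibrinogen beta chain, was called lower (adjusted p = 3.5e-06). It was on no array after irradiation well above background, so it was tested only because of the pre-irradiation arrays. It was at least 4.90-fold lower at day 3 by the bound. The 2 called higher at day 7, named here after their values were seen, were COL1A2, a chain of collagen I (2.48 ± 0.57, SE, adjusted p = 0.00493, detected on 4 of 7 pre-irradiation arrays), and ITGAM, the integrin chain of Mac-1, which is also in the list of monocyte markers (1.69 ± 0.31, SE, adjusted p = 0.00115).

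Signalling genes downstream of the receptors had 10 of 31 called higher and 1 lower at day 3. Day 5 had 8 higher and 2 lower, where 9.6% of all probes were called lower, and day 7 had 1 higher, PRKCA, and 2 lower, and the medians were 0.48, 0.16 and 0.04. PRKCA, a protein kinase C named here after its values were seen, was detected on no pre-irradiation array and was tested only because of the later arrays. It was at least 1.26-fold higher at day 7. The leading ones at day 3 were VCL, the vinculin of adhesion sites (1.85 ± 0.20), the kinase SRC (1.75 ± 0.30) and FLNA, the filamin that anchors glycoprotein Ib to actin (1.60 ± 0.24). VCL and FLNA were still called at day 5 (0.997 ± 0.19 and 1.26 ± 0.20).

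Granule genes had 16 of 24 called higher and 1, FGB, lower at day 3, with a median of 2.16, and genes of shape and cytoskeleton 16 of 33 higher and 0 lower, with a median of 1.49. CLU (3.41 ± 0.46), MYL9 (3.06 ± 0.42) and CTTN (2.82 ± 0.39), the last detected on 4 of the 7 pre-irradiation arrays, were among them. PRKG1, the kinase that cyclic GMP activates, was detected on none of these and was tested only because of the later arrays. It was at least 3.65-fold higher at day 3 (adjusted p = 7.7e-05) and is counted among those called. At day 5 the granule list had 5 higher and 1 lower and the cytoskeleton list 2 and 1, and at day 7 they had 1 higher and 1 lower, and 0 higher and 4 lower. The medians at day 7 were 0.63 and -0.10.

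Transcription factors of megakaryocytes had 2 of 17 called higher at day 3, GFI1B (1.72 ± 0.32) and SRF (0.98 ± 0.21), and 0 lower, with a median of 0.50. At day 5 there were 2 higher and 1 lower. At day 7 none was higher and 2 were lower, with a median of -0.06.

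**Figure D4:**
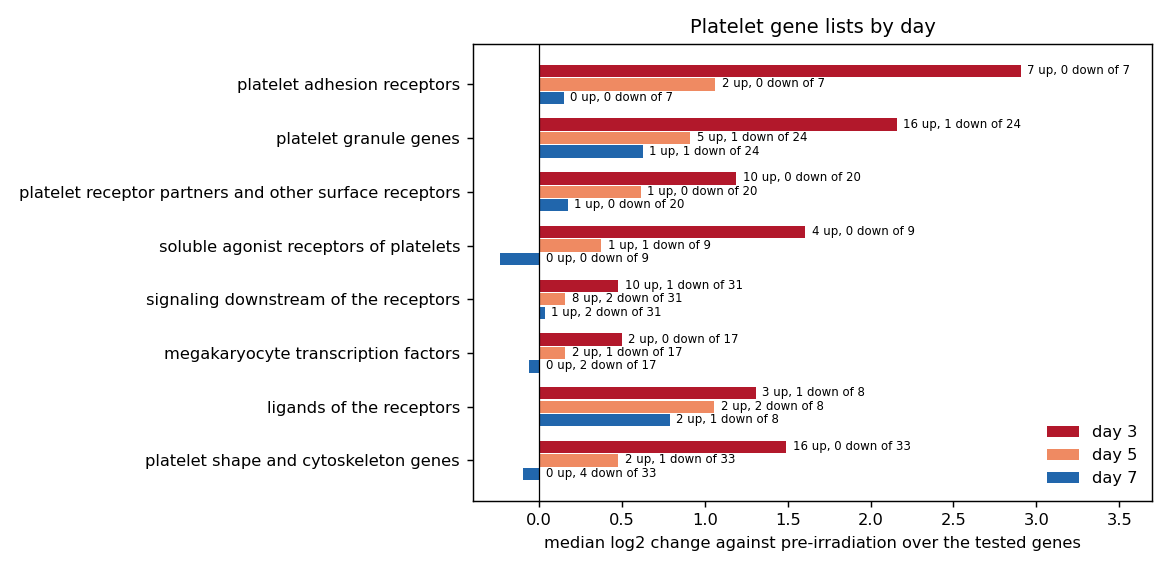
Median log2 change against pre-irradiation (x axis) over the tested genes of the receptor set and of 7 other lists (y axis) at days 3, 5 and 7, with the numbers of genes called higher and lower beside each bar. The receptor set has the bar of 2.91 at day 3, which is 1.73 with GP1BA and ITGB3 at their bounds, and of 0.15 at day 7, which is -0.19 without these genes.

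Markers of blood cells moved on the same days. Of 13 tested platelet markers, none of them a member, 10 were called higher and 0 lower at day 3. Day 5 had 2 higher and 1 lower, and day 7 had 0 higher and 1 lower. Their mean log2 signal lay at 10.44 to 11.85 on pre-irradiation arrays, 12.77 to 13.70 on day 3 arrays, 11.60 to 12.28 on day 5 arrays and 10.43 to 11.79 on day 7 arrays, so that day 3 stood above all other arrays. Erythroid markers had 0 called higher on any day, and 10, 13 and 11 of 13 lower on the 3 days. Their means were 13.64 to 15.18 on pre-irradiation arrays, 10.69 to 12.10 on day 3 arrays, 8.55 to 9.52 on day 5 arrays and 7.67 to 12.64 on day 7 arrays. CA1 was not well above background on any array at day 3 or day 5, nor was SLC4A1 at day 5.

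B cell markers had 9 of 9 called lower on all 3 days. Their means were 10.47 to 10.85 on pre-irradiation arrays, 6.55 to 7.92 on day 3 arrays, 6.22 to 7.63 on day 5 arrays and 6.85 to 7.72 on day 7 arrays. T cell markers had 3 of 11 called lower at day 3, with means of 12.23 to 12.93 before and 11.38 to 12.07 at day 3. Monocyte markers had 4 of 10 called higher and 0 lower at day 3 (11.59 to 12.28 before, 12.82 to 13.38 at day 3), neutrophil markers 1 of 11 higher (11.92 to 12.93 and 12.31 to 13.89), NK cell markers 0 of 11 in either direction (12.21 to 12.83 and 11.96 to 12.90), and general leukocyte markers 0 of 5 (14.91 to 15.30 and 15.29 to 15.88).
Basophil and eosinophil markers had 1 of 8 called higher at day 3 (7.19 to 8.68 and 7.82 to 9.19) and endothelial markers 1 of 5, VWF, which platelets also hold (7.49 to 8.01 and 7.88 to 8.93). The median change of basophil and eosinophil markers was 0.90, -0.42 and -1.17 on the 3 days. From day 3 to day 7 it was -2.09, with 1 called lower. At days 5 and 7, 4 and 2 monocyte, 1 and 2 neutrophil and 1 and 0 leukocyte markers were called higher. Of the T cell markers 2 and 0 were called lower on these days. The part of these shifts in the receptor signals was not tested.

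**Figure D5:**
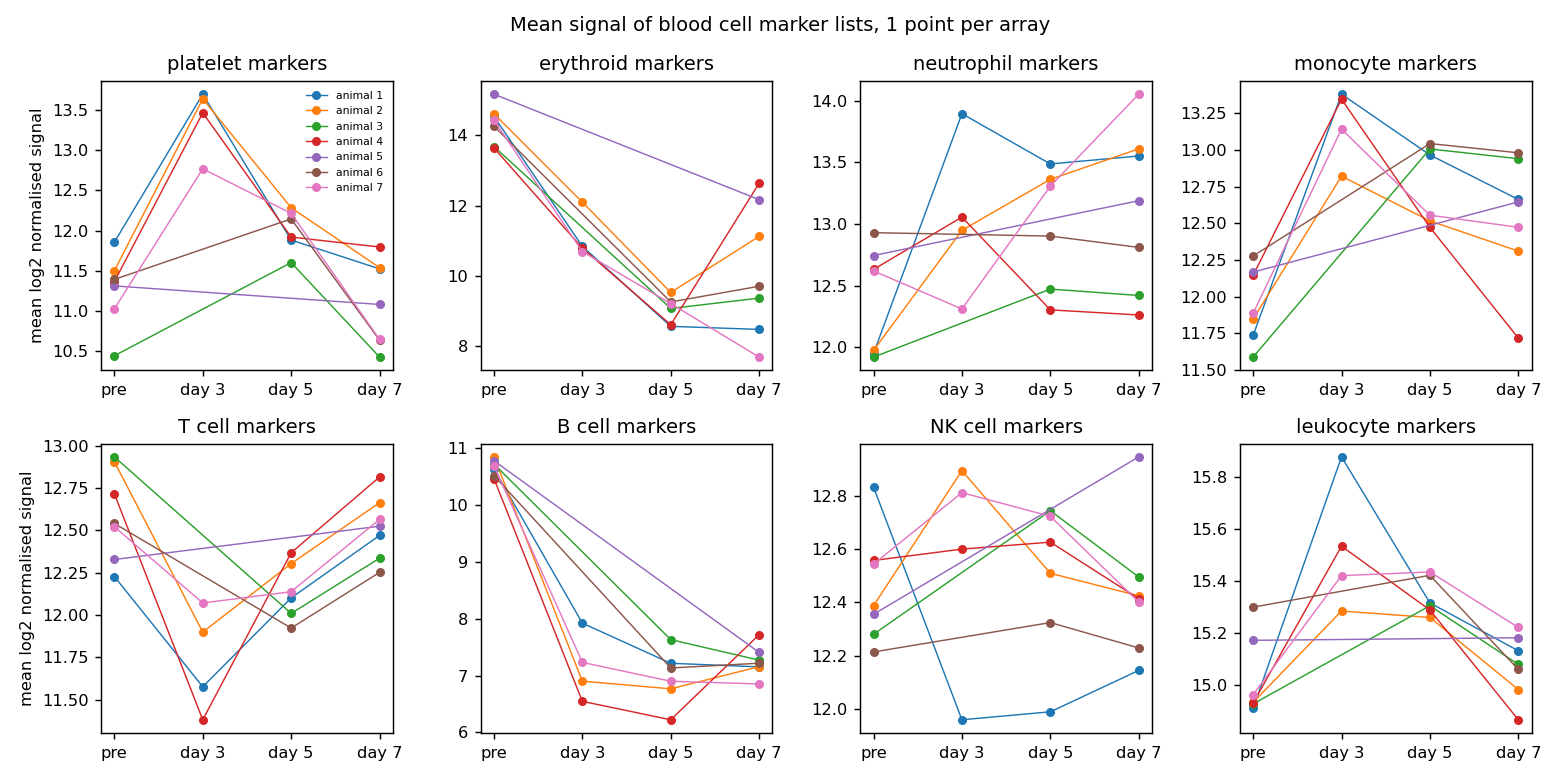
Mean log2 normalised signal of 8 marker lists (y axis) on each array by time of sampling (x axis), 1 line per animal. Platelet markers peak at day 3 at 12.77 to 13.70, while erythroid and B cell markers drop after irradiation.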

How the data were processed

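The authors' scanner output, from Agilent Feature Extraction (10.7 in the submitters' processing notes, 12.0.2.2 in the file headers), gives a processed signal intensity with background subtracted. The authors' deposited table holds log2 values of it normalised to the median array, and was an alternative. The study's methods name a human array, and the labels and files a rhesus design. Replicate numbers were taken as animals, since the study's sample table lists 7 animals with arrays, of the sexes labelled, and deviations of same-numbered arrays from their group means correlated at 0.132 to 0.648 in every pair.

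The processed intensity was taken to log2, outlier spots were left out, spots of a probe averaged and each array shifted to the median array. Probes that the scanner software found well above background on 4 or more arrays of the 24 were tested by limma 3.58.1 (R 4.3.3, statmod 1.5.0), each comparison in a fit of its own groups without a block, and called at an adjusted p under 0.005. Tables and figures used Python 3.11.15, numpy 2.4.6, pandas 2.3.3 and matplotlib 3.10.9. The fits were tested on simulated data. Precision is limited by the number of arrays.

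Members and gene lists were chosen with earlier results of these data known. All members were named; of each of the 7 lists, the 3 called genes with the largest absolute change at day 3, in either direction, and the 5 genes most like the members' mean profile. GP5 and FCER1G were named in any case. Alternatives were other normalisations, background corrections and filters, blocks for animal, scan session and slide, other ways to join probes, and omission of each animal. Gene names came from the scanner output, then from RefSeq's gene table (T2T-MMU8v2.0) by accession or description. Promoter motifs were not analysed here.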

Additional observations from a re-analysis of the deposited data

Results flagged for a closer look

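In 6 of 40 groups of arrays examined by probe, 1 array lay apart from the rest by Dixon's ratio of its gap to the group's range, where chance alone gives about 5% of groups. Animal 5 before irradiation was the lowest in CLEC1B (9.29, next 10.10, ratio 0.591) and the highest in GP1BA (4.08, next 3.33, ratio 0.615, none well above background), and is the only pre-irradiation array of the second scan session. Animal 3 before irradiation was the lowest in TREML1 (9.53, next 10.93, ratio 0.726) and ITGA2B (9.49, next 10.85, ratio 0.614). At day 3, animal 1 was the highest in ITGB3 (8.04, next 7.26, ratio 0.873) and animal 7 the lowest in GP1BA (5.70, next 7.33, ratio 0.912).

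The change from pre-irradiation differed between day 3 and day 7 in 4 genes by the direct comparison of these days, by -2.48 in GP9, -2.47 in ITGA2B, -2.65 in ITGB3, detected on 2 of 7 arrays at day 7, and -2.80 in TREML1 on the log2 scale. With the animal as a block none of these 4 genes was called, nor was any of the probes tested.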

How the results depend on the processing

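No called change of a receptor gene turned its direction under any alternative. With normexp background correction 2 receptor genes were called at day 3, 0 at day 5 and 1 lower at day 7 against day 3. These fits called 48, 7 and 6 probes that way in all. The median change of the 5 genes detected on all arrays was then 1.68, 0.005 and -2.10. Over all 7 genes it was 1.57 at day 3 and -1.71 for day 7 against day 3. In the second scan session alone, 0 were called at day 3, at day 5 and for day 7 against day 3, in fits that called 0 of 27043, 177 of 27050 and 0 of 27077 probes, with 1 array in 1 arm of each. With slide as a block the counts were 1, 0 and 0 (90, 7 and 2 probes in all) and with session as a block 0 at day 5 and 1 for day 7 against day 3 (357 and 20 in all). The median change of the 5 genes detected on all arrays was 1.73, 0.48 and -2.47 in these comparisons, against 2.51, 1.18 and -2.86 in the second session alone, 2.57, 0.94 and -2.18 with slide as a block and 2.60, 1.32 and -2.48 with session as a block. Without a filter on dim probes 0 receptor genes were called at day 5 and 1 for day 7 against day 3. These fits called 1367 and 69 probes that way in all, and the medians of the 5 genes were 0.48 and -2.47. With probes well above background on at least 12 arrays, which leaves out GP1BA and ITGB3, the median was 1.73 at day 3 and 0.48 at day 5, and in the deposited log2 values it was 0.54 at day 5. For day 7 against day 3 the replicate block called 0 receptor genes, the fit of all groups 7 and that with slide as a random block 7. These fits called 0, 1227 and 1168 probes lower in all. Counting any tested probe gave 1 gene at day 7, CD9. Omitting 1 animal gave 5 to 6 genes at day 3, 0 to 3 at day 5 and 0 to 2 for day 7 against day 3, GP1BA and ITGB3 included. These fits called 308 to 1455, 874 to 1737 and 0 to 216 probes that way in all. The medians over the 5 detected genes were 1.69 to 1.997, 0.39 to 0.58 and -2.58 to -2.24. Over all 7 genes, set at days 3 and 5 by ITGB3, they were 2.68 to 3.10, 0.91 to 1.14 and -2.68 to -2.31. Beyond CLEC1B at day 3 and the day 7 against day 3 calls, the replicate block changed no call of a receptor gene. For day 5 against day 3 no fit within the second session differs from the one given. Over all probes, day 7 against day 3 had 86 called higher and 257 lower, and 949 and 1227 in the fit of all groups. The cause of these differences was not tested.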
